A study of Mus musculus with 4 samples.

Results

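The genes of the cytosolic ribosome and of the translation factors that load and drive it were read on 4 expression arrays of mouse hippocampal CA1 tissue. Members were the probe sets whose single gene symbol in the platform's annotation names a ribosomal protein of the large (Rpl, Rplp) or small (Rps, Rpsa) subunit, an initiation factor (Eif) or an elongation factor (Eef). The rule used names and no measured values. It gave 82 of the 8251 genes that the array names singly, read by 113 of its 12488 probe sets. They comprise 21 probe sets of 16 large subunit genes, 26 of 17 small subunit genes, 48 of 34 initiation factor genes, 9 of 7 genes that regulate initiation, 7 of 6 elongation factor genes, and 2 of 2 genes that regulate or modify elongation factors.

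All 4 arrays hold total RNA of hippocampal CA1 from C57BL/6J mice, young males that had been handled and otherwise left untreated. They are the controls of a study in which other mice were shocked, and RNA was taken 1, 2, 4 or 6 hr after the last shock of those other mice. Each hour has 1 array. How many mice each array represents is unknown here, and the shocked mice are not analysed here. A difference between hours therefore has no replicate check, and an effect of the hour cannot be told apart from any other difference between these samples or arrays.

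The ribosome reads messenger RNA with a small subunit that decodes it and a large subunit that joins amino acids. Initiation factors recruit the small subunit and the initiator transfer RNA to the capped end of the message, and elongation factors then deliver transfer RNAs and move the ribosome along. Neurons tune initiation and elongation through kinases and binding proteins, and new protein synthesis is needed for lasting synaptic change in the hippocampus. Ribosomal protein mRNAs are abundant, short and present in the genome as many processed pseudogenes, which short array probes can also match.

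The deposited values are intensities on a linear scale. The 2% trimmed mean was 500.3 on each array, a scaling that hides any shift common to most genes. The median intensity was 173 at 2 hr and 198 to 204 on the other arrays, and the 3' to 5' ratio of the Gapdh control was 7.56 at 2 hr and 4.84 to 6.25 otherwise. That of Actb was 2.99 to 3.44, highest at 1 hr. The control at the 3' end of 18S ribosomal RNA gave 1383, 1150.0, 3325 and 3381 at 1, 2, 4 and 6 hr. The control in the middle of that RNA gave 415, 294.5, 537 and 612, and the 5' control 440, 133, 289 and 572. Markers of cell types were also read. All 5 measured CA1 pyramidal markers (Dcn, Lefty1, Man1a, Pou3f1 and Wfs1) were above the floor on every array, with a summed intensity of 6884 to 8754. So were the dentate granule markers Calb1, Dsp, Il16 and Lct and the CA3 pyramidal markers Nnat, Socs2 and Bok, but not Prox1 and Iyd of those lists. Being above the floor therefore cannot tell CA1 from its neighbouring regions. The sum of the 3 choroid plexus markers was 473 to 658 at 1, 2 and 6 hr and 3689 at 4 hr, through Ttr, a transthyretin mRNA of choroid plexus, at 3217. Kl was highest at 2 hr and Folr1 at 1 hr. The sum of the 2 blood markers was 3959 at 1 hr and 1987 to 3181 otherwise, through the globin gene Hba-a1. The other blood marker, Alas2, was dim and highest at 2 hr. No marker of either list was under the floor on all 4 arrays.

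A floor of 54.7, the 25th percentile of the intensities, replaced anything dimmer before log2 was taken. Of the 113 members, 80 probe sets of 66 genes exceeded the 40th percentile of mean log2 level (an intensity of 114) and were tested. The other 33 probe sets did not pass that filter. Among them 8 lay under the floor on all 4 arrays: 2 of the 5 for Rps4x, and a probe set each for Eif4b, Eif4e, Eif4h, Eif4ebp2, Eif4enif1 and Eef1g. For 16 genes no probe set passed: Rpl35a, Rpl39, Rpl39l, Rps14, Rps15, Rps20, Rps27l, Eif2s2, Eif4e, Eif4h, Eif5a, Eif2ak2, Eif2ak3, Eif4enif1, Eef1g and Eef2k. No detection calls were used here, so a dim probe set is not evidence that its mRNA is rare.

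No member passed the test for a straight line over the hours. With limma's test and Benjamini-Hochberg adjustment over the 7453 probe sets tested, 0 of 80 members and 0 of all (background 0%) passed, with a smallest adjusted p of 0.889 among the members. At an unadjusted p under 0.05 there were 3 members (3.75%) against a background of 5.13%, of which 1 had a rising slope (background 2.87%) and 2 a falling one (background 2.25%). Ordinary least squares gave 5 such members and limma with an intensity-dependent prior gave 2, and neither gave any after adjustment. The 3 were a dim Rps28 probe set, a dim Rpl19 probe set and Eef1akmt1, described below. The slope was below 0 in 49 of 80 members (background 49.1%). Both later values lay above both earlier ones in 8 (background 18.0%) and below them in 15 (background 16.1%). Eif1ax, Eif3k, Eif5 and Rpl22, each through 1 probe set, gave lower values at each successive hour (4 of 80, background 3.37%), and 1 of Eif4ebp2 higher ones (background 4.00%).

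An array was said to stand apart for a probe set when its value differed by 2-fold or more, in 1 direction, from all the others. This held for 3 tested members (3.75%), Rpl22, Rps13 and Eif2ak1, against a background of 7.53%. All 3 stood below (background 6.37%) and 0 above (background 1.36%), and 2 of them did so at 4 hr (background 1.18%). With an array left out the count was 5 or 6, since fewer values then have to differ. Among the probe sets that missed the filter, those of Rps14, Rps15 and Eef2k and 1 of Rps4x also stood apart.

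By role, the small subunit class had its highest median at 1 hr and its lowest at 4 hr. Their median over 17 tested probe sets lay 0.16 log2 units above the mean of the other arrays at 1 hr, where the median of all tested probe sets was 0.03, and their median difference at 4 hr was -0.18, where that of all was 0.04. On the 1 hr array 10 of the 17 had their highest value (background 25.9%), and on the 4 hr array 10 of the 17 had their lowest (background 24.3%). With the arrays quantile normalized the medians were 0.15 and -0.12, and with a shift to a common median they were 0.08 and -0.28, the 2 hr median then being the highest at 0.13. The large subunit median was 0.09 at 1 hr and -0.07 at 4 hr over 16 probe sets. These did not keep their sign under every scaling: the 4 hr median was 0.01 with quantile normalization, and the 1 hr median was near 0 with a common median. In bulk tissue fewer cells of a type and less RNA per cell cannot be told apart.

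Initiation factors showed another order on the deposited scale. Their median over 35 tested probe sets was highest at 2 hr, at 0.11, with 14 of 35 at their highest there (background 24.4%). The 2 hr median was 0.12 with quantile normalization and 0.04 with no filter on mean level. With a common median it was 0.33, but that scaling raises every value of the 2 hr array by 0.17 log2 units, so the rise is no support. The 2 hr array is also the one with the lowest median intensity (173) and the highest Gapdh 3' to 5' ratio (7.56), whose part was not tested. Of the 853 probe sets whose mean log2 level exceeded 11, 39.9% were highest there, as were 4 of the 7 initiation factor probe sets above that level. Of the other 28 initiation factor probe sets 10 were, where 22.4% of all tested probe sets not above that level were. The 6 elongation factor probe sets lay at 0.14, -0.08, 0.24 and -0.27 at 1, 2, 4 and 6 hr. The 2 hr value was 0.14 with a common median, since that scaling raises the 2 hr array by 0.17 log2 units relative to the deposited scale. The 6 hr value was near 0 with 1 probe set per gene or no filter, and 0.08 with a filter at the 60th percentile. Their median slope was -0.07 log2 units per hr, and without the 6 hr array it was 0.04.

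**Figure D1:**
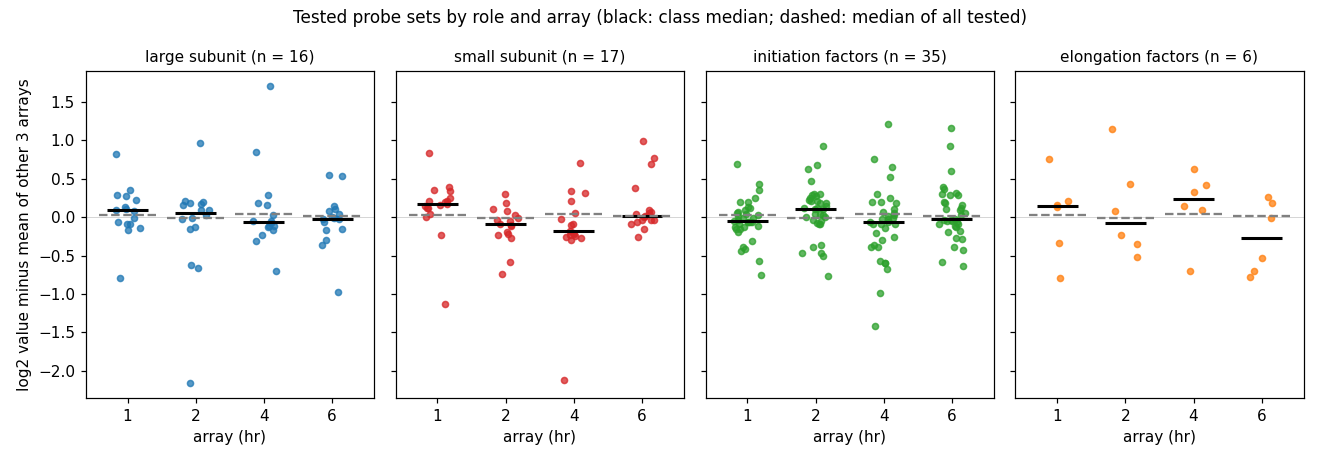
Log2 value of each tested probe set on an array minus its mean on the other 3 arrays (vertical axis, log2 units) by array hour (horizontal axis), for 4 role classes. Each dot is a probe set, the black bar is the class median and the dashed grey bar the median of all 7453 probe sets tested. The small subunit bar is at 0.16 at 1 hr and -0.18 at 4 hr, signs that quantile and common-median scaling both keep. The large subunit bars, at 0.09 and -0.07, do not keep theirs under both.

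The bright small subunit probe sets are described first. A probe set is called bright here when its mean log2 value was above 11, an intensity of 2048. This limit was chosen after the values were seen. The bright small subunit set holds 9 probe sets of 8 genes, and their transcription start windows are shown first because their mRNAs belong to the class known for a terminal oligopyrimidine (TOP) tract, the run of C and T bases at the start of ribosomal protein mRNAs through which their translation is controlled. Each window runs from 10 bases before to 20 bases after a RefSeq start on GRCm38.p6, and capitals mark a run of at least 6 C or T bases that begins with C.
Rps10, chr17:27635225-27635254, minus strand: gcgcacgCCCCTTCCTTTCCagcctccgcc
Rps18, chr17:33955646-33955675, minus strand: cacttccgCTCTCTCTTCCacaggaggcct
Rps24, chr14:24490668-24490697, plus strand: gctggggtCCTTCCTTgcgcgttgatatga
Rps24, second start, chr14:24490743-24490772, plus strand: cgccgtagccatcatggtgagtCTCCTCgg
Rps7, chr12:28635934-28635963, minus strand: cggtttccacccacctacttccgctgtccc
Rpsa, chr9:120127756-120127785, plus strand: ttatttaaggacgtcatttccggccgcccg
Rps28, chr17:33824543-33824572, minus strand: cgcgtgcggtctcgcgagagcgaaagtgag
Rps10, Rps18 and Rps24 hold such a run, Rps24 in the windows of both its listed starts. In the second Rps24 window the run lies downstream of the listed start and after an atg, so it is not a tract at the start. Rps7, Rpsa and Rps28 hold none in this window, and neither do Rps3 and Rps4x. A listed start a few bases from the true one moves the window, so a missing run says only that these letters are not there.

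Over all member genes with a RefSeq start in the reference table (67 of 82), 16 of 26 ribosomal protein genes (61.5%) held such a run on the transcribed strand in that 30-base window. The share was 29.3% (12 of 41) for initiation and elongation genes with their regulators and 25.2% of 17491 protein-coding genes. The ETS-family motif CCGGAAG, searched on both strands of the whole window from 250 bases before to 50 after the start, was present in 11 of 26 ribosomal protein genes (42.3%), 14 of 41 of the others (34.1%) and 12.9% of all protein-coding genes. TATAAA, searched likewise, was present in 4 of 26 ribosomal protein genes (15.4%) and 14.8% of all. A gene with several listed starts was counted when any of them matched, and the reverse form CTTCCGG can overlap a pyrimidine run.

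Rps28, a small protein of the mRNA exit region, was read by a pair of bright probe sets. The 98085_f_at values were 35086, 29177, 26963 and 32286 at 1, 2, 4 and 6 hr. The 100758_at values were 14582, 13883.5, 11527.5 and 12872. Both had their highest value at 1 hr and their lowest at 4 hr, with a difference of 4 and 6 hr from 1 and 2 hr of -0.12 and -0.22 log2 units.

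Rps10, which lies at the head of the subunit, read 11789, 9154.5, 8568.5 and 9180.1. Rps18, also of the head, read 13554, 12338, 10927.5 and 11937. Rps7, a protein of the body, read 10620.3, 10148, 8855 and 9463. In all 3 the 1 hr array was highest and the 4 hr array lowest, and their differences of later from earlier hours were -0.23, -0.18 and -0.18 log2 units.

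Rpsa, the laminin receptor precursor that also serves in the ribosome, read 2974.5, 2740.5, 2683 and 2819, the narrowest range of the bright small subunit set at 1.11-fold. Rps3, a protein of the mRNA entry channel with a second role in DNA repair, read 7663, 5681, 6032 and 6261 and was lowest at 2 hr. Rps4x, the X-linked form of ribosomal protein S4, read 8181, 8842, 7127 and 8047 and was highest at 2 hr. Rps3 and Rps4x are thus the exceptions to the order of the others.

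The ninth bright probe set, 97696_r_at, is annotated as Rps24, but the annotation gives it the same GenBank entry as the 97695_s_at probe set of Rpl7. Its gene is uncertain. It read 34445, 27079, 25007 and 29644. Of the 9 probe sets, 8 were highest at 1 hr, where 23.6% of the 853 bright probe sets were. On the 4 hr array 8 of 9 were lowest, where 34.5% of them were. Under quantile normalization these counts were 8 and 7, and with a common median they were 4 and 9. Of all 853 bright probe sets 62.3% had a lower mean at 4 and 6 hr than at 1 and 2 hr on the deposited scale. The share was 51.0% with quantile normalization and 80.0% with a common median. In this small subunit set the mean was lower in 9 of 9 under all 3 scalings. The difference is small, with a median of -0.17 log2 units, and limma's adjusted p was 1.00 for the slope of each. The median slope of all 17 tested small subunit probe sets was -0.02 log2 units per hr, and without the 1 hr array it was 0.03. Without that array the mean of the later hours was lower in 12 of 18 bright ribosomal probe sets of both subunits. The blood and choroid plexus markers that were highest at 1 hr and at 4 hr are given above. The summed intensity of 4 CA3 pyramidal markers was 3767 at 1 hr and 2354.5 to 2639.5 otherwise, through Nnat, which read 2015 at 1 hr and 744 to 982 otherwise. Of the others on that list, Socs2 was highest at 2 hr and Bok at 4 hr, and Iyd was under the floor on 3 arrays. The part of these cell types in this order was not tested. The Actb 3' to 5' ratio was also highest at 1 hr, and its part was not tested.

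The 8 dimmer tested small subunit probe sets did not keep that order. A higher mean at 4 and 6 hr was found in 6 of 8, with a median difference of 0.16 log2 units. Of all 6600 dimmer tested probe sets 3520 had a higher mean then. Of the 8, 2 were highest at 1 hr (26.2% of all dimmer ones) and 2 lowest at 4 hr (23%), near those shares. Rps19, whose human gene is mutated in Diamond-Blackfan anemia, read 2048, 1906, 1979 and 1770.5. Rps27, a zinc-binding protein of the subunit, read 1111, 925, 1012.5 and 1058. Rps29, another zinc-binding protein, read 291, 184, 300 and 329 through its brighter probe set. Rps19 and Rps27 were highest at 1 hr, and Rps29 at 6 hr.

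Rps13, a protein near the subunit interface, stood apart. Its probe set read 625, 472.5, 134 and 676, so that the 4 hr value lay 3.52-fold below the next lowest. No other Rps13 probe set is among the members. Another, dim probe set of Rps28, 98086_r_at, read 211, 328, 546 and 541. It was lowest at 1 hr where the bright pair was highest, and its slope per hr, 0.27 ± 0.08 on the log2 scale (SE; adjusted p = 0.889 by limma), had the smallest p of all members. Rps4l, a gene similar to Rps4x, read 623, 606, 735 and 544 through its brighter probe set. A dim Rps24 probe set, 93121_at, read 119.5, 120.0, 116 and 201, highest at 6 hr.

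In the large subunit most bright members varied little. Rpl41, a very short basic protein, read 71289.6, 62614, 62972 and 70754, a range of 1.14-fold. Rpl8, a protein of the subunit's core, read 9261, 8805, 8378 and 9075, a range of 1.10-fold. Rpl7a read 4996, 5726, 5117 and 5173. Their SDs were 0.10, 0.06 and 0.09 log2 units, where the median was 0.17 over the 853 bright probe sets and 0.29 over all tested ones.

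Rplp0, the stalk base to which the acidic stalk proteins bind, read 7478, 8974, 7803 and 7961.5. Rpl6 read 5635, 6813, 6221 and 5919. Rpl10a read 2527, 2648, 2257 and 2227 through its brighter probe set. All 3 were highest at 2 hr, as were 5 of the 9 bright large subunit probe sets (background 39.9%).

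Rpl19, a protein at the interface of the subunits, had the widest range of the bright ribosomal proteins. Its bright probe set read 21028, 16104, 19056.5 and 14529.5, a range of 1.45-fold. A dim second probe set read 247, 159, 178 and 96.8, with a fitted slope per hr of -0.22 ± 0.08 on the log2 scale (SE; adjusted p = 0.950 by limma). Both were highest at 1 hr and lowest at 6 hr. Rpl37a read 4669.9, 4765, 4311 and 5084, and Rpl7 read 7637, 7866, 6417 and 7143.

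Among the dimmer large subunit members Rpl22, an RNA-binding protein with a close paralog in the genome, ranged most. One probe set read 161, 52.9, 410 and 222, with the 2 hr value under the floor and at least 2.94-fold below the next. Its second probe set, 92857_at, read 334, 304, 278 and 248.5, in falling order. The pair had later-minus-earlier differences of 1.69 and -0.28 log2 units, opposite in sign. The second probe set of Rpl10a read 807, 2015, 849 and 1622 and was highest at 2 hr like the brighter one. Rpl13a, a protein also known for silencing mRNAs in inflamed macrophages, read 1074, 1005, 815 and 962. Rpl32 read 140, 105, 225 and 133, and Rpl38, needed for patterned translation in the embryo, read 181, 110, 180.0 and 162 through its brighter probe set, both with their lowest value at 2 hr.

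Over both subunits, 18 of 18 bright probe sets had a lower mean at 4 and 6 hr than at 1 and 2 hr, where 62.3% of the 853 bright probe sets did. With a common median it was 18 of 18 against 80.0%, and with quantile normalization 13 of 18 against 51.0%, the 5 exceptions being Rpl37a, Rpl41, Rpl6, Rpl8 and Rplp0. Of the 15 dimmer tested ribosomal probe sets 6 were lower and 9 higher at 4 and 6 hr, with a median difference of 0.04 log2 units. That is near all 6600 dimmer tested probe sets, of which 46.7% were lower, with a median difference of 0.03. Over all 33 tested ribosomal probe sets 24 were lower, against 48.5% of all tested, so the count of 18 rests on a limit set after the values were seen. Without the 1 hr array it was 12 of 18, and without any other array 14 to 16. Both later values lay below both earlier ones in 6 of 18, where 23.0% of bright probe sets did so. A further 38 probe sets carry a ribosomal protein symbol together with other symbols and were not members. Of the 22 bright ones among them 22 were lower at 4 and 6 hr on the deposited scale and 17 with quantile normalization, and 14 were highest at 1 hr (2 with a common median). The 3' and middle controls of 18S ribosomal RNA were higher at 4 and 6 hr, while the 5' control was lower at 4 hr than at 1 hr. The summed intensity of 5 oligodendrocyte markers was 16856 at 6 hr and 21947 to 23554 otherwise, none of them under the floor. In 4 of the 5 (background 16.1%) both later values lay below both earlier ones, while the other, Mag, was highest at 4 hr. The part of the 18S controls or of these markers in the lower ribosomal values was not tested.

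**Figure D2:**
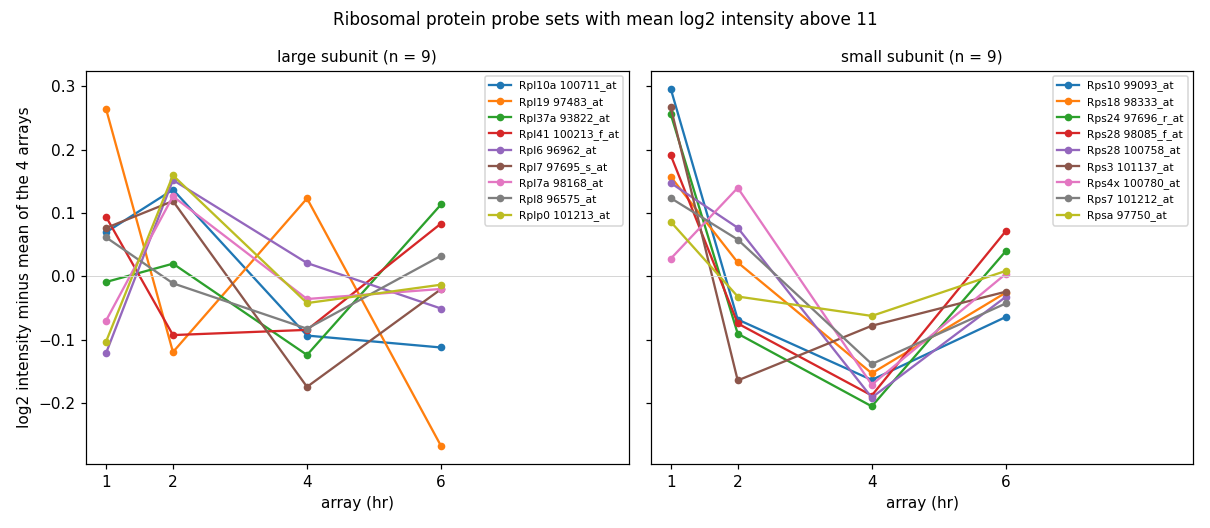
Log2 intensity minus the mean of the 4 arrays (vertical axis, log2 units) by array hour (horizontal axis) for the 9 bright large subunit (left) and 9 bright small subunit (right) probe sets, 1 line each on the deposited scale. On the right 8 of 9 lines peak at 1 hr (8 with quantile normalization, 4 with a common median) and 8 of 9 are lowest at 4 hr (7 and 9). On the left the lines cross, and 3 of 9 peak at 1 hr (1 under either other scaling).

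Initiation begins with the factors that bind the small subunit. Eif1b, a factor of start codon choice, read 5718, 5876, 5787 and 5641, a range of 1.04-fold. Eif1ax, the X-linked eIF1A gene, read 458, 447, 444 and 442 through its brighter probe set, a range of 1.04-fold and the smallest SD of all members, 0.02 log2 units. Its second probe set read 310, 460.5, 322 and 266. The spread of this gene thus depended on the probe set that read it. Eif1a, a related eIF1A gene, read 642, 641, 493 and 654 through its brighter probe set, lowest at 4 hr.

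The eIF2 complex carries the initiator transfer RNA. Eif2s3x, its X-linked gamma subunit, read 2914, 3236, 3362 and 2766. Eif2s3y, the Y-linked copy, read 130.5, 134, 260 and 206. The later 2 arrays were above the earlier 2 for Eif2s3y, a difference of 0.81 log2 units and the largest positive one among initiation factors (limma adjusted p = 0.982 for the slope). Its probe set is of the kind that matches a family of similar sequences. Eif2a and Eif2d, which can also bring initiator transfer RNA, ranged 1.25-fold and 1.13-fold, each through its brighter or single probe set. Both probe sets of Eif2s2, the beta subunit, missed the filter, and the brighter of them read 162, 156, 89.0 and 61.7.

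eIF2B, the exchange factor that recharges eIF2 and is mutated in vanishing white matter disease, was read for 4 of its subunits. Eif2b1 read 645, 702, 462 and 724, lowest at 4 hr. Eif2b2 read 498, 426, 673 and 489, highest at 4 hr. Eif2b4 read 496, 701, 680 and 603, lowest at 1 hr. Eif2b5, the catalytic subunit, read 387, 465, 412 and 348, highest at 2 hr. The 4 subunits of this complex therefore had 4 different orders over the arrays.

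eIF3, the large scaffold that holds the small subunit and the other factors together, had 10 genes tested. Eif3k read 3548, 3440.4, 3354.5 and 3226, in falling order within 1.10-fold. Eif3b read 2093, 2133, 2256 and 2059, and Eif3m read 1004, 1134, 1034 and 1095.5. These 3 varied little. Eif3c read 2211, 3270.3, 3086 and 2714, and Eif3d, a cap-binding subunit, read 797.5, 1053, 1138.5 and 951. Eif3l read 1730, 1974, 2320 and 2157. All of Eif3c, Eif3d and Eif3l were lowest at 1 hr. Eif3a, the largest subunit, read 770, 801, 663 and 566, and Eif3j1 read 931, 1156, 941 and 671, both lowest at 6 hr. Eif3f read 231, 145, 153 and 225.5, lowest at 2 hr. The 2 probe sets of Eif3e disagreed, one reading 287, 173, 488 and 186 and the other 343, 417, 223.5 and 605.

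The eIF4 factors bind the cap and unwind the leader of the mRNA. Eif4a2, the helicase form that is abundant in brain, read 8141, 8882, 6895 and 8524. Eif4a1, the form typical of growing cells, read 424.5, 602.5, 886 and 692. Eif4a1 was thus highest at 4 hr, where Eif4a2 was lowest. Eif4e, the cap-binding protein itself, was dim: its brighter probe set read 104.5, 30.5, 204 and 85.5. Eif4g3, a scaffold, read 1970, 2432, 1962 and 2420, and Eif4g2, a relative that acts without the cap-binding protein, read 400.5, 487, 362 and 420. Eif4b, a cofactor of the helicase, read 1177, 865, 1087 and 1333.5 through its brightest probe set and 285, 399, 206 and 264 through another, highest at 6 hr in the first and at 2 hr in the second. Eif4e2, a cap-binding relative, read 215.5, 220.2, 188 and 313.

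Subunit joining closes initiation. Eif5, which triggers GTP hydrolysis by eIF2, read 1587, 1539, 1296.5 and 1209, in falling order, a difference of -0.32 log2 units (limma adjusted p = 1.00 for the slope). Eif5b, the joining GTPase, read 349, 278, 140 and 532 through one probe set and 249, 414, 180.1 and 233 through the other. Both were lowest at 4 hr. Eif6, which keeps free large subunits from joining, read 406, 426, 398 and 435. Of all 35 tested initiation factor probe sets, 21 had a lower mean at 4 and 6 hr (background 48.5%), with a median difference of -0.02 log2 units.

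The 5 tested probe sets of the initiation regulators, of 4 genes, all lay below the bright limit. Of these, 4 ranged over 2-fold or more, with mean log2 levels of 6.88 to 8.52. That held for 25.3% of all tested probe sets, 28.2% of the dimmer ones and 5 of 28 dimmer initiation factor probe sets. The exception, the brightest Eif4ebp2 probe set, ranged 1.28-fold, and Eif4ebp1 ranged from a value under the floor. With 5 probe sets this is no result about the class. Eif2ak1, the heme-regulated kinase of eIF2, read 421, 477, 166 and 549, with its 4 hr value 2.54-fold below the next. Eif2ak4, the kinase that senses uncharged transfer RNA, read 125, 121, 215 and 84.3. Eif2ak1 was lowest at 4 hr and Eif2ak4 highest. Of the 5, 3 were highest at 4 hr (background 26.5%). Eif2ak3, the kinase of endoplasmic reticulum stress, missed the filter and read 163, 166, 45.5 and 87.3. Eif2ak2, the kinase activated by double-stranded RNA, missed it too and read 130.2, 59.0, 78.6 and 65.8.

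Eif4ebp1, a repressor that holds the cap-binding protein until mTOR phosphorylates it, lay under the floor at 1 hr (51.9) and read 102, 227 and 150 at 2, 4 and 6 hr. Its difference of later from earlier hours, 1.30 log2 units on the floored scale, was the largest of the regulators (limma adjusted p = 0.972 for the slope). Eif4ebp2, the form that predominates in brain, read 1702, 1728, 1945 and 2186 through its brightest probe set, in rising order. Another Eif4ebp2 probe set read 669, 105, 678 and 131, a 6.48-fold range, and the remaining one lay under the floor throughout. The 94353_at values were lower at 2 and 6 hr than at 1 and 4 hr, while the brightest probe set shows no such alternation. That grouping of the arrays was read off the values themselves and is no test.

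**Figure D3:**
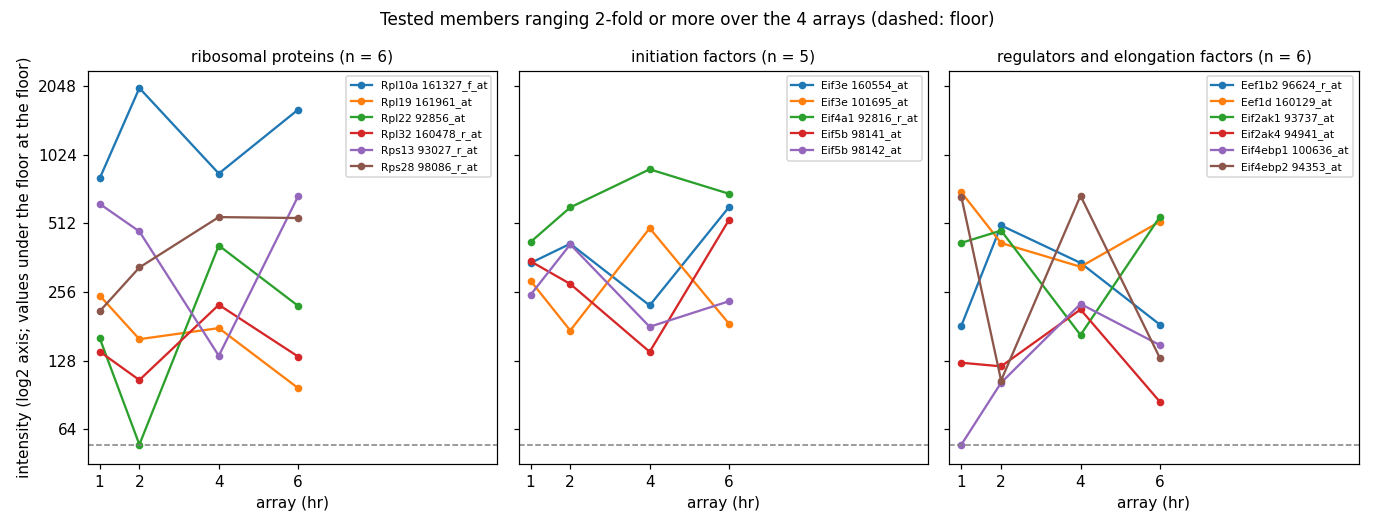
Intensity (vertical axis, log2-scaled, values under the floor of 54.7 drawn on the dashed line) by array hour (horizontal axis) for the 17 tested members that ranged 2-fold or more on the deposited scale, 1 line per probe set. Rps13 and Eif2ak1 dip at 4 hr, to 134 and 166, and Eif4ebp2 94353_at alternates between 105 and 678.

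Elongation is carried by eEF1A, which delivers aminoacyl transfer RNA, by the eEF1B complex that recharges it, and by eEF2, which moves the ribosome. Eef1a1, the widespread form, read 13319, 9962, 12834 and 11835. Eef1a2, the form of mature neurons and muscle, read 8351, 5849, 8076 and 8834. Both were lowest at 2 hr, by 1.19-fold and 1.38-fold against the next lowest array. Their differences of later from earlier hours were 0.10 and 0.27 log2 units, and with a common median that of Eef1a1 was near 0 and of opposite sign. Of the 6 probe sets 2 were lowest at 2 hr (background 29.0%). Eef2 read 2285.5, 2220.0, 2534 and 1621, lowest at 6 hr.

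The eEF1B subunits were dimmer. Eef1b2 read 182, 502, 344 and 184 through one probe set and 117, 174, 193 and 96.6 through the other, both higher at 2 and 4 hr than at 1 and 6 hr. Eef1d, another exchange subunit, read 702, 420, 330.5 and 522 and was highest at 1 hr, where the other exchange subunit was low. Eef1g lay under the floor on every array. Eef2k, the calcium-dependent kinase that inhibits eEF2, missed the filter and read 152, 114, 163 and 23.8, the last under the floor and at least 2.08-fold below the next. Eef1akmt1, a methyltransferase of eEF1A that the naming rule admits, read 498, 535, 309 and 281, with a fitted slope per hr of -0.20 ± 0.07 on the log2 scale (SE; adjusted p = 0.946 by limma), and both later values lay below both earlier ones.

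**Figure D4:**
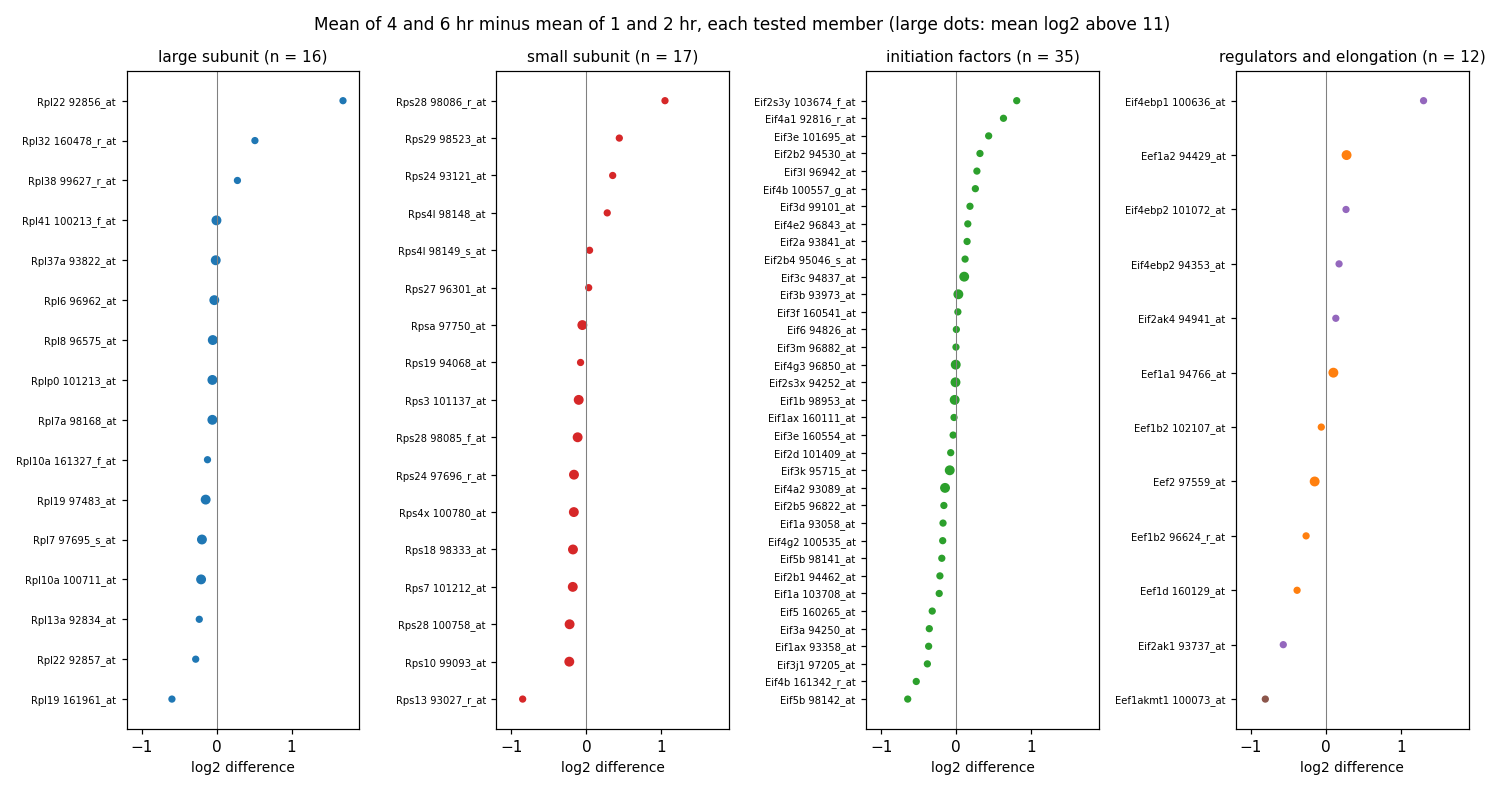
Mean log2 value at 4 and 6 hr minus that at 1 and 2 hr (horizontal axis, log2 units) for each of the 80 tested members, ordered within 4 panels by role, with large dots for bright probe sets. All 18 large dots of the ribosomal panels lie below 0 on the deposited scale, as 13 do with quantile normalization. The widest values are 1.69 for an Rpl22 probe set and -0.85 for Rps13.

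Genes read by more than one tested probe set allowed a check between probe sets. There were 13 such genes and 15 pairs. The difference of later from earlier hours had the same sign in 9 of 15 pairs, and the array with the highest value was the same in 4 of 15. The pairs that shared both were those of Rpl10a, Rpl19 and Rps4l and the bright pair of Rps28. Pairs of opposite sign were found for Rpl22, Rps24, Eif3e and Eif4b and between the dim Rps28 probe set and each bright one. The Rps28 probe sets thus enter more than 1 pair. Each array was the highest in 23.2% to 26.5% of all tested probe sets, and 48.5% of them were lower at 4 and 6 hr. Neither the 4 nor the 9 of 15 is therefore far from what unrelated probe sets could give. In the array's naming, r marks probe sets designed with relaxed rules and f those that match a sequence family. The r kind made up 19.1% of ribosomal protein probe sets (9 of 47) and 7.25% of all.

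Bright members had smaller SDs between the arrays than dim ones. The 18 bright ribosomal protein probe sets had a median SD of 0.13 log2 units over the 4 arrays and none ranged 2-fold, where the 853 bright probe sets of any gene had a median SD of 0.17 and 2.23% ranged 2-fold. The 15 tested ribosomal protein probe sets that were dimmer had a median SD of 0.37, where all dimmer tested probe sets had 0.31. Over all tested members the median SD was 0.21 and over all tested probe sets it was 0.29. The difference in spread between members and other genes was not tested.

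**Figure D5:**
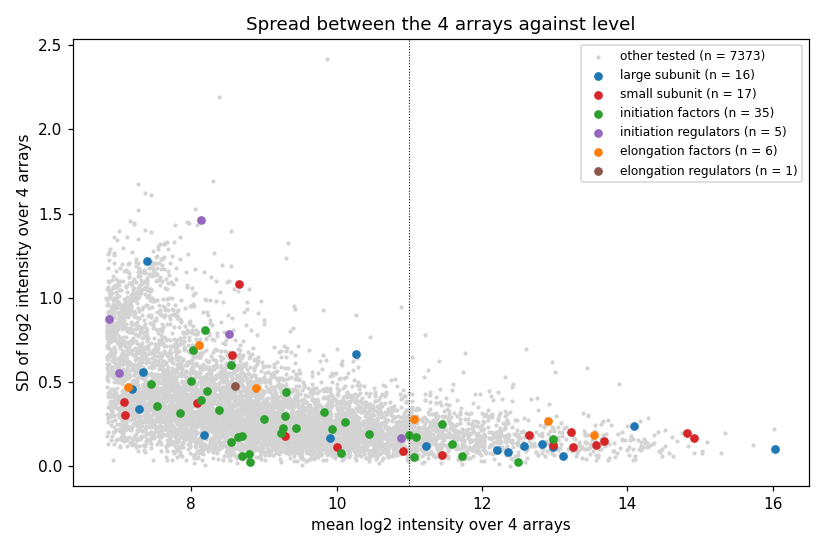
SD of log2 intensity over the 4 arrays (vertical axis) against mean log2 intensity (horizontal axis) for 7453 tested probe sets, with members coloured by role and the dotted line at 11. Members to the right of the line have SDs of 0.03 to 0.28, and the widest member, an Eif4ebp2 probe set, has 1.46.

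Other genes of protein synthesis were counted from lists by function, each gene through its probe set of highest mean, and none of them passed limma's test. Of all tested probe sets 48.5% were lower at 4 and 6 hr, and the lists are read against that share. Mitochondrial ribosomal proteins, which build the separate ribosome of the organelle, were lower at 4 and 6 hr in 34 of 55 tested genes, a median of -0.05 log2 units, and 16 of 55 (29.1%) were highest at 1 hr, near the background of 25.9%. Mrps22 read 143, 169, 127 and 75.3, and Mrpl55 read 174, 161, 231 and 208. Aminoacyl-tRNA synthetases, which charge transfer RNAs, were lower in 13 of 21 with a median of -0.10. Vars, the valine enzyme, read 306, 438, 610 and 510, and Cars, the cysteine enzyme, read 529, 468, 509 and 274.

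The remaining lists hold few genes, and no count of theirs is a result about a group. Termination and recycling genes were lower at 4 and 6 hr in 4 of 6, with the release factor Etf1 at 2555, 2778, 2020 and 2207. Poly(A) binding proteins and partners were lower in 3 of 5. Pabpc1, which circularises mRNA and is itself a TOP mRNA, read 5534, 5143, 3953 and 4686, highest at 1 hr and lowest at 4 hr. Among other genes of the TOP class the order varied. Of the 9 bright large subunit probe sets 3 were highest at 1 hr (23.6% of all 853 bright probe sets) and 3 lowest at 4 hr (34.5%). Eef1a1 was highest at 1 hr and lowest at 2 hr, and Eef2 was highest at 4 hr and lowest at 6 hr. Of the eEF1B subunits, Eef1d was highest at 1 hr and lowest at 4 hr, and neither Eef1b2 probe set was. Of the 22 bright ribosomal probe sets with several symbols, 14 were highest at 1 hr and 15 lowest at 4 hr. With a common median these counts were 2 and 17. The part of the TOP class in this order was not tested. Genes of the mTOR and S6 kinase pathway, which signals to ribosomal proteins and cap binding, were higher at 4 and 6 hr in 7 of 10. Rps6kb2, an S6 kinase, read 92.2, 63.4, 380 and 251, a difference of 2.01 log2 units, and Tsc2, an inhibitor of mTOR, read 1257, 1577, 2150 and 1949.

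Integrated stress response genes, which act downstream of the eIF2 kinases, were lower in 5 of 7. Atf4, its transcription factor, read 2348, 1608, 1580 and 1406. Ppp1r15a, the phosphatase subunit that reverses eIF2 phosphorylation, read 121.5, 112, 355 and 328, a difference of 1.55 log2 units (limma adjusted p = 0.889 for the slope). Nucleolar and ribosome assembly genes were divided evenly, 12 lower and 12 higher of 24. Efl1, the GTPase that releases Eif6 from the large subunit, read 235.5, 214, 67.8 and 48.7, the last under the floor. Its difference was -1.88 log2 units on the floored scale (limma adjusted p = 0.884 for the slope), while Eif6 itself ranged 1.09-fold. Fau, whose product holds a small subunit protein, was the only tested gene of the ribosomal proteins named otherwise and read 153, 97.9, 222 and 220.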

How the data were processed

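The authors deposited 1 linear intensity per probe set and array, and no source used here names the software that made them. Members were matched by the platform's annotation: 10833 probe sets had 1 symbol, 396 several and 1193 none, and all 113 members matched a RefSeq gene (GRCm38.p6) through the Entrez identifier. Tests excluded the 66 control probe sets. Intensities were floored at the 25th percentile, log2 transformed and filtered at the 40th percentile of the mean. A line over hours was fitted with limma 3.58.1 in R 4.3.3 (2 residual degrees of freedom) with two-sided p-values adjusted over all 7453 probe sets, and tested on simulated data. Nothing says the arrays come from separate animals, so p-values measure only the spread around a line, which may be technical, and 4 arrays limit the precision. An SE is that of the fitted slope.

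Members and lists were chosen with earlier results of these data known. Named were members with an unadjusted p under 0.05, those standing apart, in each class the 3 largest differences each way, the 3 steadiest and the 3 brightest, known pairs and complexes, genes with several probe sets, and in each list up to 2 largest differences each way. Start windows are RefSeq sequences on GRCm38.p6. The alternatives were other scalings, floors and filters, 1 probe set per gene, omitting each array, hours on a log2 scale, the later pair of hours against the earlier pair, 2 other variance models and a 1.5-fold limit. The bright groups and their limits were added after the data were seen.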

Additional observations from a re-analysis of the deposited data

How the results depend on the processing

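No probe set and no member passed the trend test under any alternative. Members standing apart numbered 3, and 5 with quantile normalization, 5 with a common median, 7 with no filter on mean level, 14 at 1.5-fold and 5 to 6 with an array left out. Bright small subunit probe sets highest at 1 hr numbered 8 of 9, and 4 with a common median. The median slope of elongation factors ran from -0.069 to 0.038 log2 units per hr with an array left out, the latter without the 6 hr array. The class medians on single arrays (an array minus the mean of the others) moved by more than the SD of a class's 4 array medians in 22 cases, as follows. With quantile normalization the large subunit read 0.026 at 1 hr and 0.00928 at 4 hr. With a common median the large subunit read -0.00206, 0.28 and -0.16 at 1, 2 and 4 hr, the small subunit 0.13 at 2 hr, initiation factors -0.14, 0.33 and -0.15 at 1, 2 and 4 hr, and elongation factors 0.14 at 2 hr. With no filter on mean level the large subunit read -0.012 and -0.00369 at 1 and 2 hr, initiation factors 0.042 at 2 hr and elongation factors -0.013 at 6 hr. With the filter at the 60th percentile the large subunit read 0.13 at 2 hr, and elongation factors -0.29 and 0.084 at 2 and 6 hr. With 1 probe set per gene initiation factors read 0.038 and elongation factors -0.013 at 6 hr. With an array left out the large subunit ran from 0.012 to 0.16 at 2 hr, and initiation factors from 0.049 to 0.13 at 2 hr and from -0.048 to 0.11 at 6 hr. The causes were not tested. Counts of bright ribosomal probe sets lower at 4 and 6 hr, and of bright small subunit ones lowest at 4 hr, stayed within 1.5 times. The difference of later from earlier hours changed sign in 11 of 80 tested members with quantile normalization and in 6 with a common median. Low signal over the floor limits what the dim probe sets show. No paired analysis was possible because each hour has 1 array. The labels of all 4 arrays begin with 1st and do not say what that numbers.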
